A study of Mus musculus with 24 samples.

Results

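The genes described here copy DNA in S phase. They are 51 mouse genes picked by name for their role in replication, out of 36528 gene rows in each library, and all 51 had a row in every library and passed the filter on low counts. They were sorted into 10 steps: 10 genes of origin licensing, 6 of helicase activation, 9 of primase and the DNA polymerases, 6 of the sliding clamp and its loader, 3 of single-strand binding, 3 of Okazaki fragment processing, 4 of nucleotide supply, 4 of replication-coupled chromatin, 4 of fork protection and degradation, and 2 E2F factors. No measured value entered the choice, although the genes were proposed with earlier results of these data known.

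Replication starts when the origin recognition complex, Cdc6 and Cdt1 load the Mcm helicase onto DNA in G1, and when Cdc45 and GINS then switch the helicase on. Primase and the polymerases copy the opened strands, with a clamp that holds polymerase on the template and a loader that opens and closes the clamp, while ribonucleotide reductase and related enzymes supply the nucleotides. Many of these genes are transcribed in late G1 and S phase under E2F transcription factors, which the retinoblastoma protein restrains, and in the intestine they are known as a mark of cycling crypt and tumour cells.

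RNA sequencing was done on cells sorted from mouse intestinal tumours whose tissue is recorded as small intestine, whose genotype is recorded as AKVPL and whose sort is recorded as bulk. EpCAM, an epithelial surface protein, stands in each sample name. The treated groups were given diphtheria toxin (DT), which kills cells that carry its receptor and served here to remove cells positive for the stem cell receptor Lgr5. The control groups were given saline. Cells were taken at 24, 48 or 96 h, which gives 6 groups of 4 libraries, all of the AKVPL genotype. The record numbers of the 48 h libraries stand apart from the others, while the sample numbers in the titles form a single run over all times. The labels name no batch. A difference in handling between the 48 h libraries and the others cannot be told apart from one between times. The labels do not spell out AKVPL, and they give neither the age of the animals nor the gene construct that makes cells sensitive to the toxin. Nor do they state whether replicate libraries are different animals. The spread behind each p-value is therefore that of these libraries and could be technical.

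Total counts per library ran from 10888654 to 27707554. Levels are given as CPM, the share of a library's counts that fell on a gene, with library sizes scaled by TMM, a method that evens out library composition. Lgr5 checked the labels: it ran from 179 to 217 CPM in saline and from 77.0 to 84.9 CPM in DT libraries of 24 h. At 48 h the DT libraries ran from 95.4 to 171 CPM, and the highest of them, replicate 3, lay within the saline range of 164 to 198 CPM, so results of that time are also given without it. At 96 h Lgr5 ran from 123 to 135 CPM in DT and from 152 to 182 CPM in saline libraries. Markers of other cell types were present. The 12 fibroblast markers summed to 3939 to 4587 CPM in saline and 3230 to 7477 CPM in DT libraries of 24 h, with none of them at 0, against 7543 to 8108 and 7696 to 9479 CPM for the 10 epithelial markers. The 6 T and NK cell markers summed to at most 3.26 CPM in any library, with Nkg7 at 0 in every group. In bulk RNA, a change in the number of cells of a type and a change in RNA per cell cannot be told apart.

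At 24 h nearly the whole replication machinery was higher after DT. Of the 51 genes 47 rose, 1 fell (Rfc3) and 3 did not pass the test (Rpa1, Pold3 and Rpa3), at an adjusted p under 0.05 in edgeR's quasi-likelihood test. Among all 17468 genes tested, 19.9% were called higher and 18.9% lower at that time. The median log2 fold change of the 51 genes was 0.75, against -0.0036 for all genes tested, and 13 genes were at least 2-fold higher. In 45 genes every DT library lay above every saline library, a pattern found in 18.1% of all genes tested. Summed over the 51 genes, levels were 1695 to 1810 CPM in saline and 2470 to 3492 CPM in DT libraries. Beside this rise, 2 of the 12 fibroblast markers, 1 of 8 endothelial markers and 3 of 10 epithelial markers were called higher and 3 epithelial markers lower. All 12 fibroblast and all 8 endothelial markers had a log2 fold change above 0, with medians of 0.50 and 0.28. For the epithelial markers it was above 0 in 6 of 10, with a median of 0.078. The part of cell mixture in the rise was not tested.

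**Figure D1:**
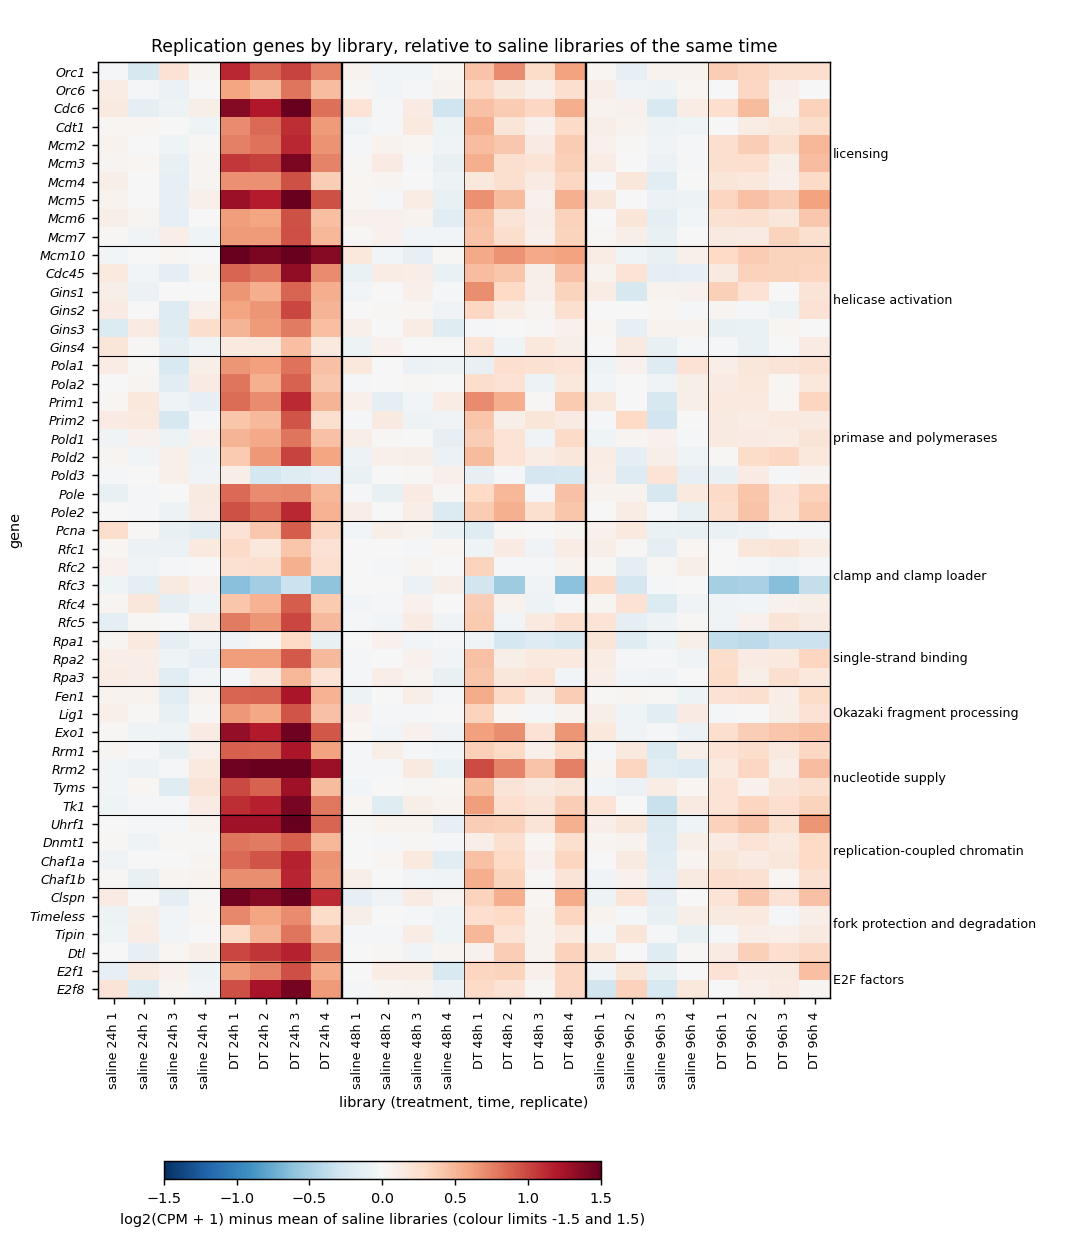
Level of each of the 51 replication genes (rows, grouped by step) in each of the 24 libraries (columns, ordered by time and treatment), as log2(CPM + 1) minus the mean of the 4 saline libraries of the same time. The DT libraries of 24 h are red in nearly every row, those of 48 h and 96 h are paler, and Rfc3 is blue in most DT libraries.

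Licensing genes rose as a block, 10 of 10, with a median log2 fold change of 0.86. Mcm2, a subunit of the helicase, stood at 97.1, 93.6, 89.3 and 95.1 CPM in saline and at 159, 165, 207 and 149.8 CPM in DT libraries (log2 fold change 0.86 ± 0.083 SE, edgeR adjusted p = 3.99e-08). Mcm3, its partner in the ring, stood at 69.0, 68.4, 62.1 and 68.8 CPM against 141, 137, 180.4 and 113 CPM (1.09 ± 0.11, edgeR adjusted p = 4.45e-08). For both genes the groups did not overlap, and DT replicate 3 was highest and replicate 4 lowest. The largest changes of this step were those of Cdc6, which recruits the helicase to origins (1.36 ± 0.15), and Mcm5 (1.33 ± 0.13). Orc1, the large subunit of the origin recognition complex, rose by 1.06 ± 0.12 from a mean of 5.11 CPM, the lowest of the step, and Orc6 rose least, by 0.61 ± 0.082.

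Helicase activation genes rose in 6 of 6 cases, with a median of 0.74. Mcm10, which helps to start unwinding at the origin, had the smallest p of all 51 genes. Its saline libraries were tightly grouped at 12.9, 13.3, 13.5 and 13.4 CPM, and its DT libraries stood at 47.5, 37.0, 43.1 and 35.9 CPM (1.61 ± 0.084, 3.06-fold, edgeR adjusted p = 9.52e-12). Cdc45, a part of the active helicase, stood at 14.4, 12.5, 11.7 and 13.3 CPM in saline and at 24.5, 23.4, 34.1 and 21.9 CPM in DT libraries (1.0 ± 0.12, edgeR adjusted p = 1.31e-06). The lowest DT library was above the highest saline library for each of these genes. Among the GINS subunits, Gins1, Gins2 and Gins3 rose by 0.73 to 0.75, and Gins4 by 0.24 ± 0.084. Gins4 stood at 29.0, 25.8, 23.2 and 24.5 CPM in saline and at 28.3, 28.5, 35.3 and 28.5 CPM in DT libraries (edgeR adjusted p = 0.0299). Its groups overlapped, with saline replicate 1 above 3 of the 4 DT libraries, and without DT replicate 3 its change was 0.15 and was no longer called.

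Of the primase and polymerase genes 8 of 9 rose, with a median of 0.69. Pole2, an accessory subunit of the leading-strand polymerase epsilon, stood at 8.19, 8.02, 7.76 and 9.02 CPM in saline and at 16.9, 15.6, 19.1 and 12.2 CPM in DT libraries (0.95 ± 0.12, edgeR adjusted p = 1.07e-06). Pola2, a subunit of polymerase alpha, which extends the primers, stood at 26.6, 27.4, 23.5 and 29.0 CPM against 47.1, 38.9, 49.8 and 35.6 CPM (0.69 ± 0.090, edgeR adjusted p = 2.66e-06). Neither gene overlapped between groups. The exception was Pold3, an accessory subunit of polymerase delta, at 76.3, 77.8, 81.5 and 74.6 CPM in saline and at 83.5, 64.3, 68.0 and 71.1 CPM in DT libraries (-0.12 ± 0.084, edgeR adjusted p = 0.288). DT replicate 1 was the highest of these 8 libraries and the other 3 DT libraries were the lowest, and without DT replicate 1 the change was -0.21 and passed the test. The other subunits of the same polymerase, Pold1 and Pold2, rose by 0.60 ± 0.081 and 0.70 ± 0.11.

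The clamp and its loader were mixed: 5 of 6 genes rose, 1 fell, and the median was 0.43. Rfc5, a small subunit of the loader, stood at 15.3, 17.2, 16.8 and 18.7 CPM in saline and at 29.8, 27.4, 35.0 and 24.2 CPM in DT libraries (0.78 ± 0.11, edgeR adjusted p = 5.31e-06). Rfc4, another small subunit, stood at 12.6, 13.9, 10.9 and 11.6 CPM against 16.6, 17.99, 23.8 and 16.4 CPM (0.61 ± 0.12, edgeR adjusted p = 3.08e-04). Both had all DT libraries above all saline libraries. Rfc1, the large subunit, rose less, from 90.3, 83.5, 83.6 and 98.4 CPM to 109, 99.4, 119 and 103 CPM (0.27 ± 0.067, edgeR adjusted p = 0.00233), still with no overlap. Pcna, the clamp itself, was counted at only 11.2, 9.30, 8.46 and 8.09 CPM in saline and 10.9, 12.5, 18.2 and 11.7 CPM in DT libraries (0.53 ± 0.13, edgeR adjusted p = 0.00244), and DT replicate 1 fell inside the saline range. The RefSeq table lists the pseudogenes Pcna-ps1 and Pcna-ps2, and the counts are of uniquely aligned reads, so the level of Pcna is uncertain.

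Rfc3, a small loader subunit (chr5:151642817-151651208, GRCm38.p6), moved against the other 4 subunits. It stood at 59.3, 56.2, 68.1 and 64.9 CPM in saline and at 39.8, 42.9, 49.5 and 40.4 CPM in DT libraries of 24 h (-0.52 ± 0.11, edgeR adjusted p = 7.34e-04), every DT library below every saline library. Per length, on the scale of the authors' normalized RPKM, Rfc3 was the highest loader subunit in saline libraries at a mean of 37.1 and fell to 25.9 after DT, while the lowest, Rfc5, went from 4.58 to 7.87. The ratio of the highest to the lowest subunit of the loader was 8.09 over the group means of saline and 4.76 over those of DT libraries, where Rfc2 was highest at 37.5. Within single libraries the ratio ran from 7.24 to 8.97 in saline and from 4.36 to 5.47 in DT, with no overlap. In the Mcm2 to Mcm7 helicase the ratio of its highest subunit (Mcm6) to its lowest (Mcm7) was 3.02 in saline and 2.94 in DT libraries, and both rose.

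**Figure D2:**
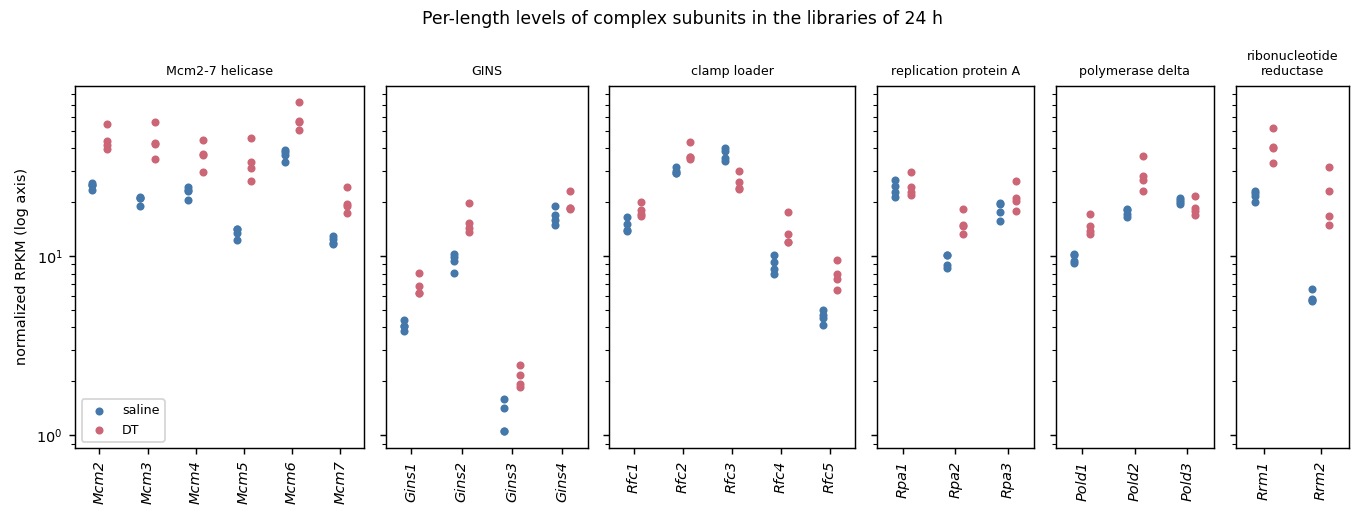
Normalized RPKM (log axis) of the subunits of 6 replication complexes in the 4 saline (blue) and 4 DT (red) libraries of 24 h, 1 point per library. Helicase subunits shift up together, whereas Rfc3 shifts down among the clamp loader subunits and Rpa1 and Pold3 overlap between groups.

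In single-strand binding, 1 of the 3 subunits of replication protein A rose. Rpa2, its middle subunit, stood at 20.2, 20.2, 17.99 and 17.2 CPM in saline and at 29.6, 29.7, 36.6 and 26.7 CPM in DT libraries (0.70 ± 0.093, edgeR adjusted p = 2.85e-06). Rpa1, the large subunit that binds DNA, stood at 86.6, 93.0, 76.0 and 80.9 CPM against 80.8, 85.0, 104 and 77.8 CPM (0.048 ± 0.084, edgeR adjusted p = 0.688). Rpa3, the small subunit, stood at 14.2, 13.9, 11.4 and 12.6 CPM against 12.9, 14.5, 18.7 and 15.1 CPM (0.24 ± 0.11, edgeR adjusted p = 0.0891). The DT libraries of Rpa2 lay apart from saline, while those of Rpa1 and Rpa3 overlapped the saline range. Without DT replicate 1 the change of Rpa3 was 0.29 and passed the test. Per length, the ratio of the highest to the lowest subunit was 2.53 in saline and 1.61 in DT libraries.

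The 3 genes of Okazaki fragment processing rose, with a median of 0.93. Exo1, an exonuclease that acts in mismatch repair and at broken ends, stood at 7.63, 7.12, 7.12 and 8.25 CPM in saline and at 20.2, 18.4, 22.4 and 15.3 CPM in DT libraries (1.34 ± 0.12, 2.53-fold, edgeR adjusted p = 1.07e-08). Its groups were far apart, the lowest DT library being well above the highest saline library. The flap nuclease Fen1 rose by 0.93 ± 0.11 and the ligase Lig1 by 0.67 ± 0.092.

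Nucleotide supply had the highest median of the 10 steps, 1.08, and 4 of 4 genes rose. Rrm2, the regulated small subunit of ribonucleotide reductase, changed most of all 51 genes. It stood at 14.1, 13.6, 14.1 and 16.2 CPM in saline and at 41.5, 56.0, 76.4 and 36.5 CPM in DT libraries (1.87 ± 0.18, 3.64-fold, edgeR adjusted p = 4.62e-08). Rrm1, the large subunit of the same enzyme, stood at 101, 97.0, 90.9 and 103 CPM against 183, 182, 230.4 and 149.9 CPM (0.93 ± 0.096, edgeR adjusted p = 1.02e-07). Neither subunit overlapped between groups, and DT libraries of Rrm2 spread over a wide range, again with replicate 3 highest and replicate 4 lowest. Per length, Rrm1 exceeded Rrm2 by a ratio of 3.69 in saline and 1.93 in DT libraries. Thymidine kinase Tk1 rose by 1.20 ± 0.13 and thymidylate synthase Tyms by 0.97 ± 0.12. Tyms has a listed copy, Tyms-ps, with 7 to 68 counts per library, and its level is uncertain to that extent.

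All 4 genes of replication-coupled chromatin rose, with a median of 0.90. Uhrf1, which brings the maintenance DNA methyltransferase to newly copied DNA, stood at 24.6, 24.4, 24.1 and 25.5 CPM in saline and at 60.7, 61.0, 81.5 and 46.1 CPM in DT libraries (1.34 ± 0.13, edgeR adjusted p = 3.11e-08). Dnmt1, that methyltransferase, stood at 113, 107, 114 and 114 CPM against 196, 193, 209.8 and 159 CPM (0.76 ± 0.073, edgeR adjusted p = 3.91e-08). Saline libraries of Uhrf1 lay close together and far under the DT libraries, and Dnmt1 did not overlap either. The histone chaperone subunits Chaf1a and Chaf1b rose by 0.94 ± 0.094 and 0.85 ± 0.11.

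Fork protection and degradation genes rose in 4 of 4 cases, with a median of 0.82. Clspn, the checkpoint adaptor claspin, stood at 11.6, 10.6, 9.45 and 10.7 CPM in saline and at 30.5, 29.1, 34.9 and 24.1 CPM in DT libraries (1.48 ± 0.12, 2.80-fold, edgeR adjusted p = 6.30e-09). Dtl, the ligase subunit that removes Cdt1 in S phase, stood at 16.8, 15.2, 17.1 and 17.7 CPM against 34.4, 36.1, 38.2 and 29.5 CPM (1.05 ± 0.094, edgeR adjusted p = 1.35e-08). Both had DT libraries entirely above saline. The fork pair Timeless and Tipin rose less, by 0.60 ± 0.084 and 0.55 ± 0.10. Both E2F factors rose: the activator E2f1 by 0.77 ± 0.11, and E2f8, a repressor of E2F targets, from 16.4, 12.4, 14.6 and 13.7 CPM to 28.6, 34.7, 40.3 and 22.7 CPM (1.15 ± 0.15, edgeR adjusted p = 1.81e-06), with no overlap.

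**Figure D3:**
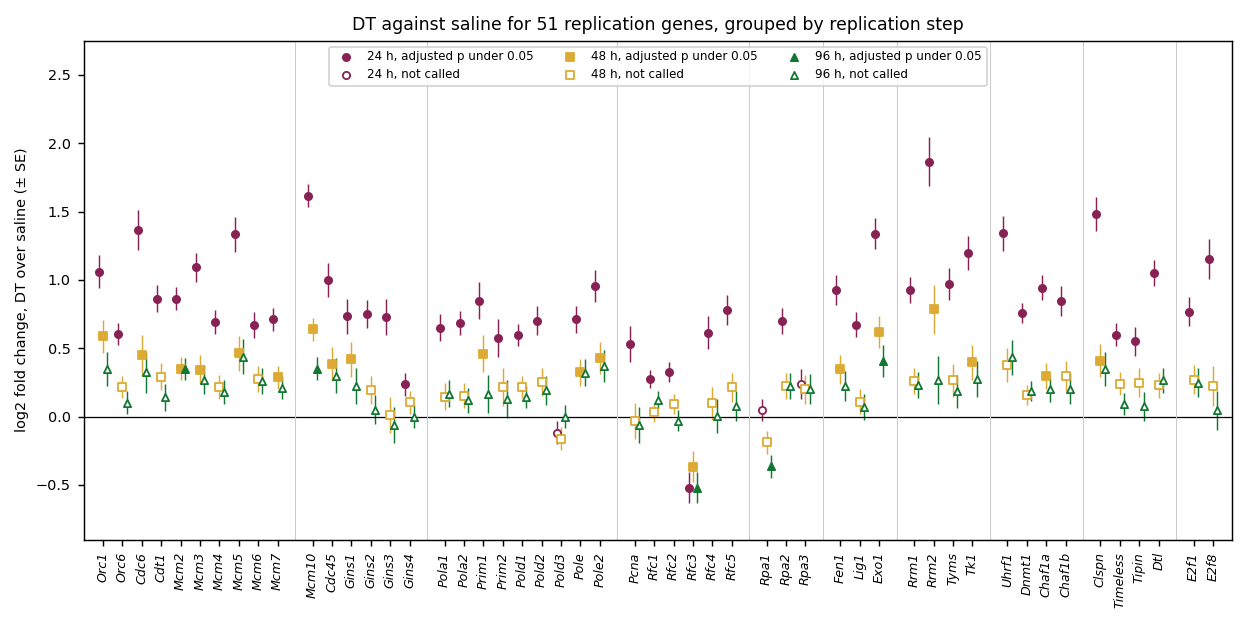
Log2 fold change of DT over saline with its standard error for each of the 51 genes at 24 h (circles), 48 h (squares) and 96 h (triangles), grouped by step in the order of the text. Filled symbols passed an adjusted p under 0.05. The circles lie above the other symbols for nearly every gene, from -0.52 (Rfc3) to 1.87 (Rrm2).

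Genes with a lower level in saline had larger log2 fold changes at 24 h. Across the 51 genes, the Spearman correlation of the per-length level in saline libraries of 24 h with the log2 fold change at 24 h was -0.54. With levels from the saline libraries of 48 h and 96 h, which the fold change did not use, it was -0.51 and -0.52. These are descriptions across genes of the same libraries.

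The genes varied together from library to library. DT replicate 3 of 24 h was the highest of the 4 DT libraries for 46 of 51 genes and replicate 4 the lowest for 41. After removing the mean of each group, the Pearson correlation of log2 CPM over 24 libraries had a median of 0.51 over the 1275 pairs of the genes, with 93.7% of pairs above 0, while pairs of 1 member and 1 of the other 17417 genes tested had a median of -0.0046. Without DT replicate 3 of 24 h the median over pairs was 0.34. The lowest median correlations with the other members were those of Pold3 (-0.072), Rfc3 (0.060) and Orc1 (0.17). These points share libraries, depth and scaling.

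By 48 h fewer genes differed and the differences were smaller. Of the 51 genes 18 were called higher and 1 (Rfc3) lower, against 4.83% and 6.50% of all genes tested, and the median log2 fold change was 0.25. In 20 genes every DT library was above every saline library, as in 7.16% of all genes tested. Licensing had 6 of 10 genes called higher, helicase activation 3 of 6, and primase and the polymerases 3 of 9. Okazaki fragment processing had 2 of 3, nucleotide supply 2 of 4, and replication-coupled chromatin and fork protection 1 of 4 each. None was called higher of the 6 clamp and clamp loader genes, which held the 1 lower call, the 3 of single-strand binding or the 2 E2F factors, where edgeR's unadjusted p was under 0.05 for 0, 1 and 1 genes with a higher level. At this time the 12 fibroblast markers summed to 4111 to 8112 CPM in saline and 7886 to 12417 CPM in DT libraries. All 12 had a log2 fold change above 0, with a median of 0.52, and 0 were called. Of 8 endothelial markers 7 were above 0, with a median of 0.19 and 1 called higher. Of 12 macrophage markers only 1 was above 0, with a median of -0.53 and 1 called lower. The part of cell mixture in the result was not tested.

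Mcm10 had the smallest p again at 48 h, with 15.3, 13.2, 12.5 and 13.8 CPM in saline and 20.8, 22.5, 20.8 and 21.4 CPM in DT libraries (0.64 ± 0.083, edgeR adjusted p = 6.66e-05). Exo1 stood at 8.16, 7.75, 8.36 and 7.68 CPM against 12.8, 13.5, 9.46 and 13.2 CPM (0.62 ± 0.11, edgeR adjusted p = 0.00123). For Mcm10 the 4 DT libraries were alike, whereas for Exo1 replicate 3 was the lowest by far. Orc1 stood at 5.51, 5.12, 5.09 and 5.37 CPM against 7.45, 9.22, 6.57 and 8.49 CPM (0.59 ± 0.12, edgeR adjusted p = 0.00276). Rrm2 stood at 13.6, 13.5, 15.1 and 12.7 CPM against 28.1, 23.7, 18.8 and 23.8 CPM (0.78 ± 0.18, edgeR adjusted p = 0.00565). DT libraries of both stayed above saline, with replicate 3 lowest. Mcm2 stood at 89.7, 94.7, 93.3 and 87.8 CPM against 127, 121, 99.2 and 119 CPM (0.35 ± 0.083, edgeR adjusted p = 0.00766). Pole2 stood at 8.16, 7.56, 8.11 and 6.40 CPM against 10.1, 11.4, 9.05 and 10.4 CPM (0.43 ± 0.12, edgeR adjusted p = 0.0201). Each of these 6 genes had all DT libraries above all saline libraries. Rfc3 stood at 51.9, 52.6, 49.4 and 55.7 CPM against 43.0, 35.8, 50.3 and 33.7 CPM (-0.37 ± 0.11, edgeR adjusted p = 0.0374), and DT replicate 3 lay within the saline range.

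DT replicate 3 of 48 h, the library with Lgr5 near the saline level, was the lowest DT library for 40 of the 51 genes and lay within the saline range for 21. Without it 28 genes were called higher and 1 lower, against 7.72% and 7.73% of all genes tested in that fit, with a median of 0.32. Licensing then had 9 of 10 genes called. The count of 19 genes called at 48 h rested on other libraries too: it was 7 without DT replicate 1, 11 without DT replicate 2, 5 without DT replicate 4, and 8, 8 and 6 without saline replicates 1, 2 and 4. Mcm10, Exo1, Orc1, Rrm2 and Mcm2 were called in all 17 alternative fits.

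**Figure D4:**
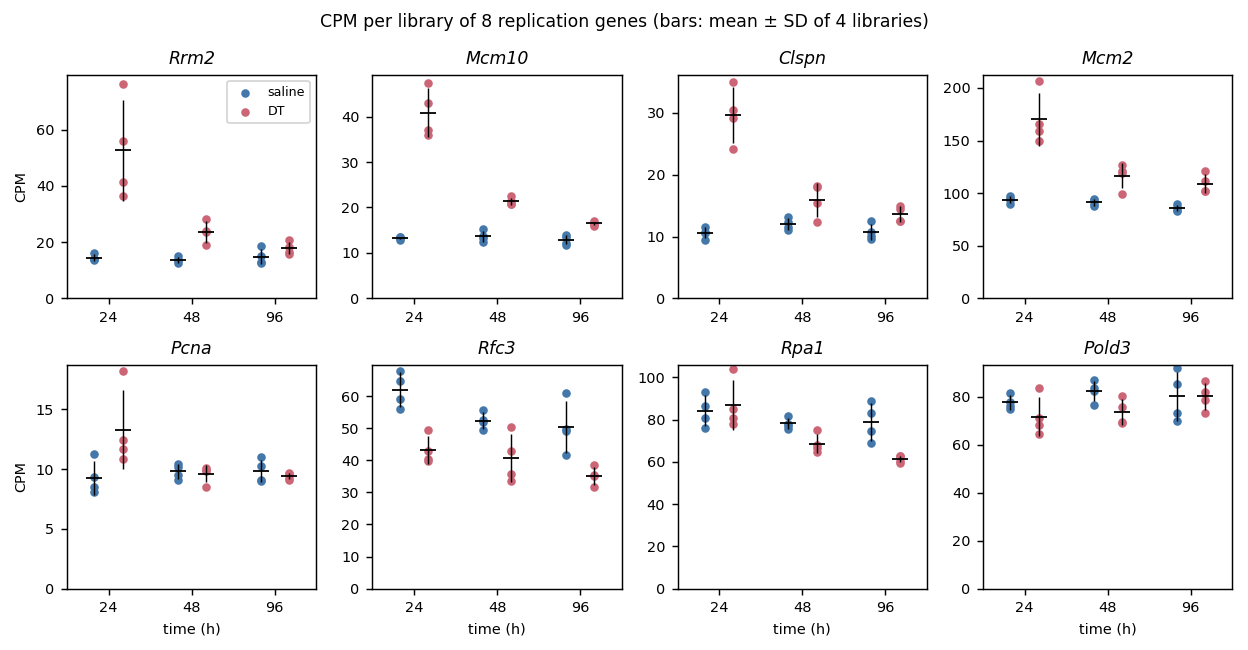
CPM per library of 8 replication genes in saline (blue) and DT (red) groups at 24, 48 and 96 h, with the mean and SD of 4 libraries. Rrm2, Mcm10, Clspn and Mcm2 peak in the DT libraries of 24 h, Rfc3 lies lower in DT at each time with overlap at 48 h, and Pold3 overlaps at each time.

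At 96 h few of the genes differed. The test called 3 genes higher (Mcm2, Mcm10 and Exo1) and 2 lower (Rfc3 and Rpa1), against 1.01% and 3.02% of all genes tested. The split of calls over all genes was 25.0% higher, and it was 35.3% with upper quartile scaling. Of the 51 genes 44 had a log2 fold change above 0, with a median of 0.19, and in 13 every DT library was above every saline library, as in 4.91% of all genes tested. The fibroblast markers summed to 3097 to 11402 CPM in saline and 6206 to 11203 CPM in DT libraries of this time.

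Mcm2 stood at 89.7, 86.5, 82.8 and 84.2 CPM in saline and at 102, 111, 102 and 121 CPM in DT libraries of 96 h (0.35 ± 0.083, edgeR adjusted p = 0.0173). Mcm10 stood at 13.9, 12.2, 11.8 and 13.6 CPM against 16.03, 17.0, 16.4 and 16.4 CPM (0.35 ± 0.085, edgeR adjusted p = 0.0184). Exo1 stood at 9.34, 7.98, 8.18 and 7.78 CPM against 10.1, 11.05, 11.4 and 11.7 CPM (0.41 ± 0.12, edgeR adjusted p = 0.0483). In all 3 genes the DT libraries lay just above the saline libraries. Uhrf1, at 26.0, 27.2, 20.7 and 23.1 CPM against 30.9, 32.7, 28.8 and 38.8 CPM, did not overlap either but missed the threshold (0.43 ± 0.13, edgeR adjusted p = 0.0530). Rfc3 stood at 61.1, 41.6, 49.1 and 49.9 CPM against 35.2, 35.3, 31.7 and 38.7 CPM (-0.52 ± 0.11, edgeR adjusted p = 0.00898). Rpa1 stood at 88.7, 68.8, 74.4 and 83.2 CPM against 60.5, 59.6, 62.7 and 62.7 CPM (-0.36 ± 0.084, edgeR adjusted p = 0.0136). For both of these the DT libraries lay below the saline libraries. Of the 5 calls, that of Rfc3 was made in all 17 alternative fits. The count was 1 without DT replicate 2, and 2 without DT replicate 4, saline replicate 3 or saline replicate 4.

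The change of the DT effect over time was tested directly. From 24 h to 48 h the effect became lower in 25 of the 51 genes, against 2.34% of all genes tested, with a median change of -0.52. From 24 h to 96 h it became lower in 43 genes, against 7.82% of all genes tested, with a median of -0.60. The 8 others were Rfc1, Rfc3, Pold3, Pole, Prim2, Gins1, Gins4 and Rpa3. The 43 include Rpa1, which was not called at 24 h and was called lower after DT at 96 h. The joint test over the 3 times called 36 genes, against 7.97% of all genes tested. These tests share the libraries of 24 h, so their counts are not separate evidence.

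Mcm10 had the smallest p of the joint test (edgeR adjusted p = 2.77e-06), and its effect at 48 h and 96 h was lower than at 24 h by a log2 difference of -0.98 ± 0.12 and -1.26 ± 0.12. Clspn (edgeR adjusted p = 2.74e-04) changed by -1.08 ± 0.17 and -1.14 ± 0.17. Dtl (edgeR adjusted p = 4.39e-04) changed by -0.82 ± 0.13 and -0.79 ± 0.13, and Dnmt1 (edgeR adjusted p = 7.58e-04) by -0.60 ± 0.10 and -0.57 ± 0.10. In each of these genes most of the decline lay between 24 h and 48 h. For the last 3 the later differences were -0.063 ± 0.17, 0.037 ± 0.13 and 0.033 ± 0.10. For Rfc3 the effect at 96 h differed from that at 24 h by 0.0023 ± 0.16 (edgeR adjusted p = 0.995). Between 96 h and 48 h edgeR called 0 of the 51 genes, with 1 at an unadjusted p under 0.05, and DESeq2 and limma called 0, against 0.00572% of all genes tested in edgeR.

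The count of 25 genes between 24 h and 48 h was 12 without DT replicate 3 of 48 h, 16, 10 and 13 without saline replicates 1, 2 and 3 of 24 h, and 16 without saline replicate 4 of 48 h. The joint count of 36 was 23 without saline replicate 2 of 24 h.

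In saline libraries no member was called between times. Between 48 h and 24 h edgeR called 0 of the 51 genes in saline, with 3 at an unadjusted p under 0.05, against 0.355% of all genes tested. Between 96 h and 24 h it called 0, with 6 at an unadjusted p under 0.05, against 3.22% of all genes tested, and DESeq2 and limma also called 0 in both. Within the DT libraries 46 genes were lower at 48 h than at 24 h, against 11.7% of all genes tested. At 96 h 48 genes were lower than at 24 h, against 20.9% of all genes tested. Both counts share the DT libraries of 24 h. The mean level in DT libraries was highest at 24 h for 50 of 51 genes, and it fell from 24 h to 48 h and again to 96 h for 46. These are orders of group means, and DT libraries of 96 h were not tested against those of 48 h.

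**Figure D5:**
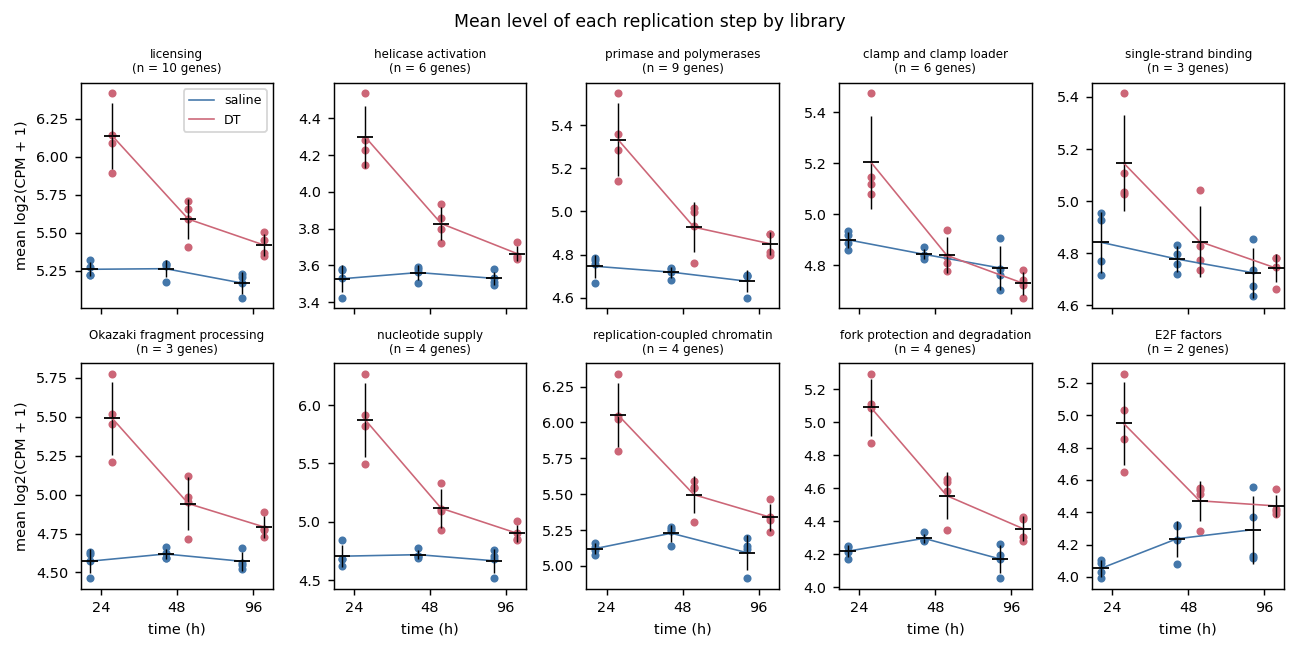
Mean log2(CPM + 1) over the genes of each of the 10 steps (y axis, scaled per panel) in each library at 24, 48 and 96 h, for saline (blue) and DT (red), with the mean and SD of 4 libraries joined by lines. The DT groups start high at 24 h and approach the saline groups by 96 h, and single-strand binding and the clamp step show the smallest gap.

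The promoters of the genes were read for words that E2F factors and the cell cycle's later regulators are known to bind. Of the 51 genes 42 had an entry in the RefSeq table of GRCm38.p6, which holds the 250 bases before and the 50 bases after a start site. The E2F words searched on both strands were TTTCCCGC, TTTCGCGC, TTTGCCGC and TTTGGCGC. They stood in 18 of 42 promoters (42.9%, Wilson 95% interval 29.1% to 57.8%), against 704 of 27025 promoters in the table (2.61%). With core words, the same words without their first base, the counts were 29 of 42 (69.0%) and 10.9%. CCAAT, the word of the factor NF-Y, stood in 27 of 42 promoters (64.3%) against 41.1%. TTTGAA, the CHR word of late cell cycle genes, stood in 7 of 42 (16.7%) against 20.2%. In a list of G2/M genes, used for contrast, the CHR word stood in 12 of 17 promoters and the E2F word in 1 of 17.

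Licensing promoters held the E2F word most often, in 7 of 9. None of the 4 nucleotide supply, 3 single-strand binding or 2 E2F factor promoters held it. The median log2 fold change at 24 h was 0.81 for the 18 genes with it and 0.81 for the 24 without it. The following promoters are those of the 3 genes with the largest change, the 2 with the smallest, and Rfc3, which fell and was added after its values were seen. They are written 5′ to 3′ on the strand of the gene, from RefSeq GRCm38.p6, with E2F, CHR and CCAAT words of either strand in capitals (CCAAT reads ATTGG on the other strand).
Rrm2 (chr12:24708004-24708303, plus strand): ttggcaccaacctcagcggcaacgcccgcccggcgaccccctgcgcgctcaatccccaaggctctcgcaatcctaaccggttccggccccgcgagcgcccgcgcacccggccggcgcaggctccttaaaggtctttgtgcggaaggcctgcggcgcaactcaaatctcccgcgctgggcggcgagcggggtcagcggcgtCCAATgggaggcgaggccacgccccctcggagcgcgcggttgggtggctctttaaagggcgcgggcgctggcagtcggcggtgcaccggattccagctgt
Mcm10 (chr2:5012742-5013041, minus strand): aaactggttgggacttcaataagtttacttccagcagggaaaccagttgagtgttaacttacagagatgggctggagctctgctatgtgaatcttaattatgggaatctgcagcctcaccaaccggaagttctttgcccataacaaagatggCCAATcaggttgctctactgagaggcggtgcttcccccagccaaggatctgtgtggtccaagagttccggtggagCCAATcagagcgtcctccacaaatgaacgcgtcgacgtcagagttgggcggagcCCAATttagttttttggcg
Clspn (chr4:126556730-126557029, plus strand): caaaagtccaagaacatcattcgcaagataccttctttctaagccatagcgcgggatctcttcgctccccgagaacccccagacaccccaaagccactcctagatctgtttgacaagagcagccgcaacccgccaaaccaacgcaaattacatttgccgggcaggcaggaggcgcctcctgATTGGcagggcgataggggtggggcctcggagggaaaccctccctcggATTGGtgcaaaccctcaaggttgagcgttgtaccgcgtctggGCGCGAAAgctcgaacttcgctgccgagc
Pold3 (chr7:100121453-100121752, minus strand): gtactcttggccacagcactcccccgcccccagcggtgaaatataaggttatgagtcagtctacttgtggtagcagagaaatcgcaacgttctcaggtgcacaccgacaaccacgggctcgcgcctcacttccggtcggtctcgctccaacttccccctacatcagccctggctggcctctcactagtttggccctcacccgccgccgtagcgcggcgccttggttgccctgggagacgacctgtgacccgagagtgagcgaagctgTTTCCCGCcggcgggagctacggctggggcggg
Rpa1 (chr11:75348334-75348633, minus strand): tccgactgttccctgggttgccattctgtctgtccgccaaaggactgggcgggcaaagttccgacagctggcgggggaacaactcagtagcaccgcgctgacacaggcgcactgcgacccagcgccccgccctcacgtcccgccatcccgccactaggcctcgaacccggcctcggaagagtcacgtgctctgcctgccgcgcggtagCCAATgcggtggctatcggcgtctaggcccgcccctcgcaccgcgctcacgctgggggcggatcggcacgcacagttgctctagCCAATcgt
Rfc3 (chr5:151651159-151651458, minus strand): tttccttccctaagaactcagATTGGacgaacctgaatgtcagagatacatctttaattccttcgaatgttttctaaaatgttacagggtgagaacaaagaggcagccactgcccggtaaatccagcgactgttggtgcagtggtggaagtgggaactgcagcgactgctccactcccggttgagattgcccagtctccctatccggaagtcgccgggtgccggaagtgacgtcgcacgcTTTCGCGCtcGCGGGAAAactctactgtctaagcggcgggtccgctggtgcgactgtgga
Counted from the start site, the E2F word of Clspn began 21 bases after it and that of Pold3 17 bases after it. Rfc3, the member that fell, held 2 E2F words, 1 beginning 10 bases before the start site and 1 at the start site itself. The promoters of Rrm2 and Mcm10, the genes with the largest changes, held 1 and 3 CCAAT words and no E2F word in this window. That of Rrm2 did hold an E2F core word, and that of Mcm10 did not. The Mcm10 window ends in tttggcg, the start of TTTGGCGC, and a word cut by the window end could not be counted. A match here is a word in a sequence, and binding was not measured.

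Most other genes of the pathway, from lists outside the 51, rose with them at 24 h. At that time 19.9% of all genes tested were called higher and 18.9% lower, the background of each list below. Of 16 other licensing and firing factors 14 rose and 1 (Mcm9) fell, with a median of 0.55. Ticrr, which helps to load Cdc45, rose by 1.17 ± 0.13, the helicase Recql4 by 1.20 ± 0.13, and geminin (Gmnn), the inhibitor of Cdt1, by 0.92 ± 0.11. Wdhd1, which ties polymerase alpha to the helicase, rose by 1.05 ± 0.13. Of 14 other fork enzymes and loaders 9 rose and 2 fell, with a median of 0.31. The nuclease Dna2 rose by 1.32 ± 0.15, and the alternative loader subunits Chtf18 and Dscc1 by 1.03 ± 0.12 and 0.98 ± 0.17. The polymerase epsilon subunit Pole3 rose by 0.45 ± 0.082.

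In other nucleotide and histone supply 10 of 12 genes rose and 1 (Rrm2b, the p53-regulated reductase subunit) fell, with a median of 0.77. The histone chaperone Asf1b rose by 1.59 ± 0.16, the clamp-binding factor Pclaf by 1.45 ± 0.14 and the remodeller Hells by 0.95 ± 0.10. Samhd1, which breaks down nucleotides, rose as well, by 0.90 ± 0.069. Among 18 genes of RB-E2F and S phase control 10 rose and 1 (Rbl2, a retinoblastoma relative of resting cells) fell, with a median of 0.33. Cyclin E (Ccne1) rose by 1.44 ± 0.15, the repressor E2f7 by 1.31 ± 0.15, the checkpoint kinase Chek1 by 0.97 ± 0.12 and E2f4 by 0.59 ± 0.063.

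The G2/M list, whose genes act mostly after replication, rose in 22 of 22 cases at 24 h with a median of 1.28, higher than the 0.75 of the replication genes. Of the same list 20 of 22 were called higher at 48 h and 16 of 22 at 96 h, against 4.83% and 1.01% of all genes tested. The medians were 0.54 and 0.45. Among the replication genes 18 of 51 and 3 of 51 were called higher at these times. The difference between the 2 lists was not tested. Cyclin B2 (Ccnb2) rose by 1.57 ± 0.11 at 24 h, the kinesins Kif23 and Kif11 by 1.28 ± 0.096 and 1.23 ± 0.094, and cyclin A2 (Ccna2) by 1.34 ± 0.11.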

How the data were processed

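Cells were sorted by FACS and their RNA was purified with a Qiagen RNeasy Micro kit, per the labels' protocols. For each library the authors deposited 36528 rows, 1 per gene. Per the file headers, the deposited count holds unique alignments to the model of a gene, and it was tested without change. The other deposited value is a normalized RPKM, scaled by size factors per the file headers, and served here only to compare levels between genes. GSNAP and GRCm38 are named in the submitters' processing notes. For versions, annotation and strand use the sources used here give nothing. The RefSeq table of GRCm38.p6 named 85.0% of the Entrez identifiers, with all members and other listed genes among them.

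Groups came from the labels. The test was that of edgeR 4.0.16 in R 4.3.3 (quasi-likelihood, robust dispersion, TMM scaling, filtering by expression), fitted once over all 24 libraries by group, with 18 residual degrees of freedom and 17468 genes tested. The common biological coefficient of variation was 0.120. P-values were two-sided and adjusted by Benjamini-Hochberg over all genes tested, with a threshold of 0.05. The standard error of a log2 fold change is its size over the square root of F. The script was checked on simulated data. Alternatives were 2 scalings, 2 filters, DESeq2 1.42.0, limma 3.58.1 (voom), dispersion without robust estimation, a replicate block, the libraries of 1 time alone, and each library left out. Leaving out libraries for member levels and correlations was added after seeing the data. Replicates of a group differed by a chi-square of at least 3.97 per degree of freedom, so none was a copy within sampling noise.

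The members and lists were chosen with earlier results of these data known. Values per library are given for the members with the smallest p in each step at 24 h (2 per step, 1 in steps of 3 or fewer), up to 6 with the largest p at 24 h, and up to 6 with the smallest p at 48 h and at 96 h. The 4 smallest p of the interaction, up to 4 genes of each related list and Lgr5 are also named, and so is Rfc3 at all times, chosen after its values were seen. Promoter words were counted by exact match in windows of 300 bases.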

Additional observations from a re-analysis of the deposited data

Results flagged for a closer look

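The effect of DT differed between times by a direct test of the difference. It was lower at 48 h than at 24 h in 25 of the 51 replication genes, against 2.34% of all genes tested. At 96 h it was lower than at 24 h in 43, against 7.82% of all genes tested. The joint test over the 3 times called 36, against 7.97% of all genes tested. The genes named here were picked because they had the smallest p of this same joint test among the 51. The edgeR adjusted p of the joint test was 2.77e-06 for Mcm10, 2.74e-04 for Clspn, 4.39e-04 for Dtl and 7.58e-04 for Dnmt1. Each had an effect that was lower at the later times.

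A library stood apart from the 3 others of its group in 10 of 162 groups of 4 values tested, by a gap past Dixon's critical value, and chance flags about 1 in 20 such groups. Among saline libraries these were Mcm3 at 62.1 CPM in replicate 3 and Dnmt1 at 107 CPM in replicate 2 of 24 h, Rfc5 at 18.2 CPM in replicate 3 of 48 h, and Rpa2 at 18.8 CPM in replicate 1 and Dnmt1 at 97.5 CPM in replicate 3 of 96 h. Among DT libraries they were Gins4 at 35.3 CPM in replicate 3 of 24 h, Cdc45 at 13.5 CPM in replicate 3, Rpa2 at 26.4 CPM and Pcna at 8.53 CPM in replicate 1 of 48 h, and Cdc45 at 13.9 CPM in replicate 1 of 96 h.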

How the results depend on the processing

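Across the alternatives tried no named gene changed direction past the threshold, and 47 of the 48 calls at 24 h were made in every alternative, the exception being Gins4. At 48 h 5 of 19 calls and at 96 h 1 of 5 were made in every alternative. Leaving out 1 library at a time gave 47 to 50 genes called at 24 h, 5 to 29 at 48 h (19 with all libraries) and 1 to 5 at 96 h. It gave 10 to 34 for the change of the effect from 24 h to 48 h, 31 to 44 from 24 h to 96 h, 0 to 0 from 48 h to 96 h and 23 to 43 in the joint test. Within DT libraries it gave 37 to 47 at 48 h and 46 to 49 at 96 h against 24 h, and within saline libraries 0 to 0 and 0 to 1, the last without saline replicate 1 of 96 h. With the libraries of 48 h alone 8 genes were called at 48 h, where fewer samples enter the fit. DESeq2 called 8 at 96 h, and the cause was not tested. The mean log2 difference of the members ran from 0.65 to 0.81 at 24 h, 0.20 to 0.29 at 48 h and 0.13 to 0.18 at 96 h. The median correlation ran from 0.34 (without DT replicate 3 of 24 h) to 0.54, and the share of promoters with an E2F word was 69.0% with the core words, which are shorter. Over all genes, calls at 48 h went from 1979 to 945 with the libraries of that time alone, and the change from 24 h to 48 h from 505 to 772 with DESeq2. Between saline libraries they went from 62 to 156 with DESeq2 at 48 h, and at 96 h from 563 to 983 with DESeq2, 234 with limma and 321 with no filter. Leaving out 1 library moved these totals further. The DT calls at 48 h fell to 1154 without DT replicate 4 and to 1196 and 1187 without saline replicates 1 and 4. Those at 96 h fell to 359 and 362 without DT replicates 2 and 4 and to 371 and 415 without saline replicates 3 and 4. The change from 24 h to 48 h gave 325, 272 and 336 without saline replicates 1, 2 and 4 of 24 h, 323 without saline replicate 4 of 48 h, and 865 and 321 without DT replicates 1 and 3 of 48 h. The joint test went from 1392 to 840 and 887 without saline replicates 2 and 4 of 24 h, and the DT libraries of 48 h against 24 h from 3323 to 2205 without DT replicate 3 of 48 h. Saline calls at 48 h were 38 without replicate 2 of 48 h. Those at 96 h were 165, 133 and 183 without replicates 1, 2 and 4 of 24 h, and 1218, 91, 219 and 275 without replicates 1, 2, 3 and 4 of 96 h. The change from 48 h to 96 h was called for 1 gene in all, for 6 with DESeq2 and for 0 to 2 with 1 library left out. The background shares move with these totals. The joint test was not run in DESeq2.

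Replicate numbers showed no sign of pairing. Over 12 same-numbered pairs the correlation of deviations ran from -0.36 to 0.13, with 2 above 0.1 and 3 libraries matching their own number best. The labels do not state a pairing, and with 4 libraries a group this check cannot exclude one. With the replicate block 48 genes were called at 24 h, 13 at 48 h, 4 at 96 h, 19 and 40 for the change from 24 h to 48 h and 96 h, and 32 in the joint test.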
